A study of Mus musculus with 12 samples.

Results

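The genes described here mark nephron progenitors, the self-renewing cells of the cap mesenchyme that surround the tips of the ureteric bud in the fetal kidney. The members are 10 genes chosen by name, Six2, Cited1, Osr1, Eya1, Sall1, Meox1, Uncx, Capn6, Traf1 and Itga8. These genes, and the gene lists further below, were chosen with earlier results of these data known. Shares of members or lists set beside shares of all genes are therefore descriptions and not tests of a set. They were read from every probe set that the platform annotation assigns to one of these symbols alone. All 10 were measured, by 11 probe sets, and they were tested among 12393 genes.

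Total RNA came from cultured fetal kidneys of C57BL/6 mice, in 6 beta-catenin activated samples, which the labels describe as bearing tumors, and 6 wild type samples. For both groups the labels give an injection of the pregnant mouse with tamoxifen at 10.5 dpc (days post coitum), 2 mg per 40 g of body weight, dissection of the kidneys at 10.5 dpc and culture for 3 to 4 days. The labels also give, for both groups, transferrin at 5 ug/mL, insulin at 5 ug/mL and selenium at 5 ng/mL. They name neither the activating allele nor a Cre driver, and do not say which cells carry the change, whether kidneys were pooled, or that the samples came from separate animals, so the p-values measure the spread between these samples, which may be technical. The numbers in the sample titles form a higher run and a lower run, each with 3 activated arrays (replicates 4 to 6 and 1 to 3) and 3 wildtype arrays (likewise), and the labels do not say what a run is.

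In the developing kidney, the cap mesenchyme either renews itself or, on a Wnt signal from the ureteric bud that acts through beta-catenin, leaves the progenitor state and forms an epithelial vesicle, the first stage of a nephron. Six2 is the homeodomain factor that holds cells in the progenitor state, and Cited1 is a transcriptional co-regulator of the least committed of these cells. Osr1, Eya1 and Sall1 are transcriptional regulators that act before or beside Six2, and loss of any of them in mice impairs kidney formation.

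Values below are the deposited intensities on a linear scale, in the order of the replicates, and differences are on a scale of log2(intensity + 16) after quantile normalisation, activated minus wildtype, with the moderated standard error (SE) of limma. Adjusted p is limma's p after Benjamini-Hochberg adjustment over the 12393 genes, and a gene passed the test at an adjusted p under 0.05. The highest reading of 27 probe sets for bacterial control transcripts, used here as a mark of background, was 29.0. Six2, Sall1, Meox1, Uncx, Capn6 and Itga8 read above it on 12 of 12 arrays, Cited1 and Osr1 on 11, Traf1 on 9 and Eya1 on 8.

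The main axis of variation among the arrays separated the runs. It held 24.7% of the variance, and arrays lay at 17.0 to 22.9 in the higher run and at -27.1 to -15.0 in the lower run. The control probe sets for Gapdh and beta-actin give a 5' to 3' ratio (log2), a measure of RNA or labelling quality, which stood apart in activated 2 at -0.28 (mean log2), with the other arrays between -2.44 and -1.14. Y-linked genes averaged 4.24 to 4.48 in activated 6, wildtype 2 and wildtype 5 and at least 7.38 elsewhere, and activated 4 had both Y-linked signal (7.54) and Xist (10.90).

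The promoter windows printed here are those of Six2, Uncx, Capn6 and Traf1, the genes that passed with a fall in the lower run and had a window. RefSeq windows of assembly GRCm38.p6, 250 bases before to 50 bases after a gene's start, were found for 7 of the 10 members, in 11 windows, with none found for Osr1, Eya1 and Meox1. Capitals mark a CCAAT box (CCAAT) or a GC box (GGGCGG), read on both strands, and the sequences run 5' to 3' on the gene's strand.
Six2 (chr17:85688205-85688504, strand minus): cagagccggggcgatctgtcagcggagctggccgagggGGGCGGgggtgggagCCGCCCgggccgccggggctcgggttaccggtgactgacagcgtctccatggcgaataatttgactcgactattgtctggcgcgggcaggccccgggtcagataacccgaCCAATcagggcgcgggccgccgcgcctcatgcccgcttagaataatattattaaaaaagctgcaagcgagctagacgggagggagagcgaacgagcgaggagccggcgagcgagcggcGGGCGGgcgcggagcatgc
Uncx (chr5:139543648-139543947, strand plus): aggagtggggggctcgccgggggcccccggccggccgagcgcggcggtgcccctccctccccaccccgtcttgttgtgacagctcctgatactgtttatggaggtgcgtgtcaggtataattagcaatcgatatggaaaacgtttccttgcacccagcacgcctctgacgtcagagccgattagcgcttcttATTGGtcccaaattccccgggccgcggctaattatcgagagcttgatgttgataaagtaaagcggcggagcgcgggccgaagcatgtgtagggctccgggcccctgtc
Capn6 (chrX:143827363-143827662, strand minus): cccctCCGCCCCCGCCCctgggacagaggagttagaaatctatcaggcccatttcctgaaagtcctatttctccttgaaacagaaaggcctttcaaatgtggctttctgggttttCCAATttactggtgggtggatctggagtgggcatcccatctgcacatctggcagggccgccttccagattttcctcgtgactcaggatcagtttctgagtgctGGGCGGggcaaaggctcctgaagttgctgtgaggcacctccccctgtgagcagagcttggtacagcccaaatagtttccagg
Traf1 (chr2:34961723-34962022, strand minus): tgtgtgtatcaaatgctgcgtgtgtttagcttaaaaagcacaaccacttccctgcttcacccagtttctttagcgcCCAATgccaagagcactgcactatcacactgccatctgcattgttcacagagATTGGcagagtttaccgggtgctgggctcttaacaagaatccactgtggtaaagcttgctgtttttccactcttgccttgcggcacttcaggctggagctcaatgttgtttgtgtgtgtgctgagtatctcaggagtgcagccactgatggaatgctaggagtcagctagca

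Neither of the Tcf/Lef words CTTTGAA and CTTTGAT, the letters through which beta-catenin's partner factors bind DNA, occurred in any of the 11 member windows on either strand, and 8.65% of all 32851 windows held at least 1 of them. The word TCAGGTTTC, bound by factors of the Six2 family, was likewise in 0 of the 11 windows and in 0.429% of all windows. A CCAAT box was in 6 of the 11 windows and in 37.4% of all, a GC box in 5 of the 11 and in 35.7% of all, and a TATAAA word in 2 of the 11 and in 13.6% of all. These matches describe letters in a short window and were searched with the expression values already known; several windows belong to the same gene.

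Over all 12 arrays the members read lower in activated kidneys, without passing the test. All 10 had a negative difference, against 53.4% of all genes, and 0 a positive one, against 46.6%, and their median difference was -0.96, where the median of all genes was -0.01. None of the 10 passed, where 0.0242% of all genes did in either direction, 0.00807% with a negative and 0.0161% with a positive difference. An unadjusted p under 0.05 was found for 7 of the 10, against 6.15% of all genes. Uncx came nearest, at 7.66 ± 0.36 in activated and 8.65 ± 0.39 in wildtype kidneys (normalised log2, SD, n = 6 arrays each), a difference of -0.99 (SE 0.20, adjusted p = 0.214 by limma). In none of the 10 did the 6 activated arrays lie wholly below the 6 wildtype arrays, which 0.21% of all genes did. When the model also held the run, 0 of the 10 passed, against 0.105% of all genes in either direction, 0.0242% with a negative and 0.0807% with a positive difference. Each run holds as many activated as wildtype arrays, so the differences and their signs are the same values as without the run. Only the spread changed, and 7 of the 10 had an unadjusted p under 0.05, against 8.79% of all genes. Uncx then had an adjusted p of 0.0793 by limma. Its call turned on the settings: it passed with the 5' to 3' control ratio as a further term (adjusted p = 0.0345) and without wildtype 6 (adjusted p = 0.0401).

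In some members the lack of a call over 12 arrays went with a wider spread between the activated arrays. The SD of Six2 was 1.06 over the 6 activated arrays and 0.21 over the 6 wildtype arrays, that of Cited1 1.41 and 0.66, and that of Capn6 0.97 and 0.20. It was also wider in activated arrays for Eya1, Sall1, Meox1 and Traf1. That was not so for Uncx (0.36 and 0.39), Osr1 (0.68 and 0.82) and Itga8 (0.27 and 0.33). In Six2, Cited1 and Capn6 the activated arrays separated by run, as the plot of the members by array shows, so each run is described on its own.

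**Figure D1:**
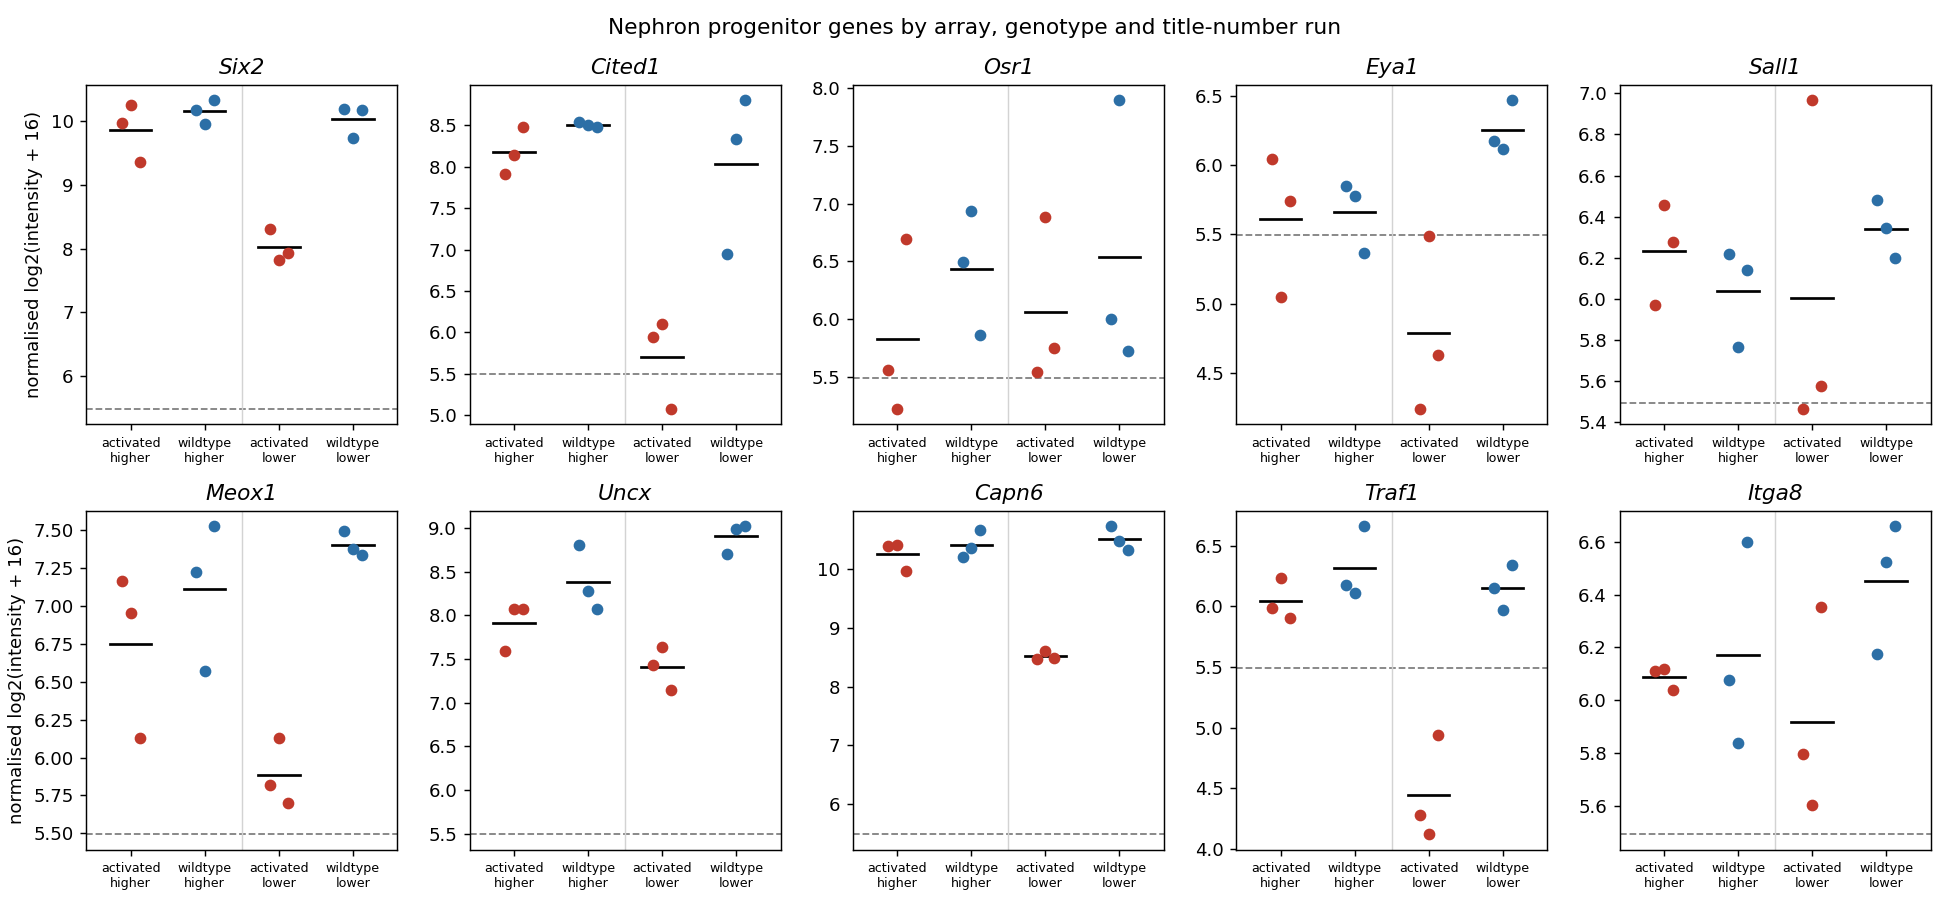
Normalised log2(intensity + 16) of the 10 genes on each array, with activated in red and wildtype in blue, the higher run left of the grey line and the lower run right of it; bars are means of 3 arrays and the dashed line is the highest bacterial control, 5.49. In the lower run the activated arrays of Six2, Capn6, Meox1, Uncx and Traf1 lie below all wildtype arrays, and in the higher run those of the same genes overlap with wildtype.

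In the lower run Six2, Capn6, Meox1, Uncx and Traf1 fell in activated kidneys. These 5 of 10 members passed the test with a negative difference, which 0.266% of all genes did (0.597% in either direction), and 0 members rose. Because the members were chosen with earlier results of these data known, the shares in this paragraph describe the set and do not test it. Without wildtype 2, wildtype 3 or activated 1, 2 members passed, Six2 and Capn6. Of the 12393 genes, 32, 36 and 30 passed in those fits, against 74 with no array left out. An unadjusted p under 0.05 was found for 7 of the 10, against 7.07% of all genes. All 10 had a negative difference, against 54.4% of all genes, with a median of -1.51 where the median of all genes was -0.03, and 7 of the 10 had 3 activated arrays wholly below the 3 wildtype arrays, against 7.09% of all genes, and 0 wholly above, against 5.41%. In RNA from whole kidneys, fewer progenitor cells and less RNA of these genes per cell cannot be told apart.

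Six2 read 286, 228 and 207 in the 3 activated kidneys of the lower run, against 1153, 805 and 1127 in the wildtype kidneys. Every activated array was far below every wildtype array. The log2 difference was -2.01 (SE 0.19, adjusted p = 0.00155 by limma), 4.03-fold lower. Activated 2, the array that stood apart in control signal, lay between the other activated arrays in deposited intensity and below both after normalisation (7.82, beside 7.92 and 8.31), and Six2 passed without any single array of the run.

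Cited1 had the largest difference of the members in this run and did not pass. It read 44.8, 61.5 and 16.8 in activated kidneys, against 105, 303 and 418 in wildtype kidneys. The groups did not overlap, but wildtype 1 lay far below the other wildtype arrays, and the difference was -2.32 (SE 0.46, adjusted p = 0.0724 by limma). Without wildtype 1 it was -2.86 (adjusted p = 0.0265), and it also passed with arrays centred on their medians, with the dimmest genes removed, with the spread pooled over the 4 groups and with the 5' to 3' control ratio as a term.

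Of the regulators that act before or beside Six2, none passed. Eya1, which encodes a phosphatase and co-activator that works with Six2 and its relatives, read 3.27, 33.1 and 8.06 in activated kidneys, against 53.1, 59.0 and 70.9 in wildtype kidneys. There was no overlap, yet 2 of the 3 activated values were under the bacterial control level, so the size is uncertain, and the difference of -1.47 (SE 0.35, adjusted p = 0.14 by limma) did not pass. Sall1, a zinc-finger factor of the cap mesenchyme, read 29.5, 126 and 29.6 in activated kidneys, against 70.4, 69.8 and 57.3 in wildtype kidneys. Here activated 2 lay above every wildtype array while the other activated arrays lay below them all, and the difference was -0.34 (SE 0.40, adjusted p = 0.956 by limma).

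Osr1, a zinc-finger factor of the early renal mesenchyme, read 31.8, 119 and 35.1 in activated kidneys, against 45, 220 and 37.9 in wildtype kidneys. In each genotype replicate 2 was the high array, the groups overlapped, and the difference was -0.48 (SE 0.56, adjusted p = 0.956 by limma). Activated 2 and wildtype 2 also had the highest 5' to 3' control ratios of their genotype in this run, -0.28 and -1.27, where the others lay between -2.14 and -1.90. With that ratio as a term in a fit of 4 group means, chosen after the data were seen, the lower-run difference of Osr1 was -0.89 (adjusted p = 0.256) and that of Sall1 was -0.51 (adjusted p = 0.502), and neither passed.

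**Figure D2:**
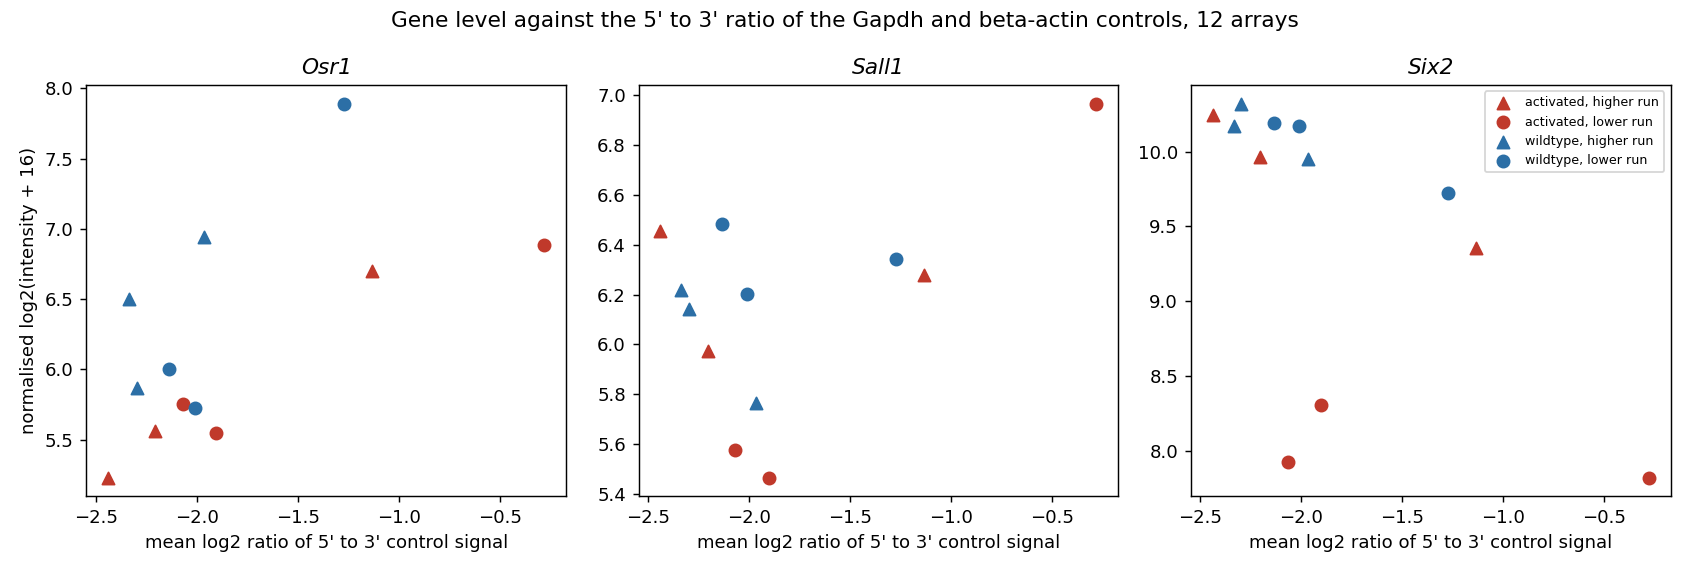
Normalised log2(intensity + 16) of Osr1, Sall1 and Six2 on the vertical axis against the mean log2 5' to 3' control ratio on the horizontal axis, 1 point per array. Activated 2, at -0.28, has the highest Sall1 reading and a Six2 reading of 7.82, beside 7.92 and 8.31 on the other activated arrays of the lower run.

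The homeobox genes Meox1 and Uncx fell together. Meox1, whose transcript marks the same uncommitted cap cells as Cited1, read 40.7, 63.3 and 33.4 in activated kidneys, against 160, 152 and 143 in wildtype kidneys, with no overlap. Its difference was -1.52 (SE 0.25, adjusted p = 0.025 by limma). Uncx, known from the patterning of the axial skeleton and kidney mesenchyme, read 149, 202 and 113 in activated kidneys, against 398, 477 and 496 in wildtype kidneys, also with no overlap, and its difference was -1.50 (SE 0.20, adjusted p = 0.00788 by limma). Meox1 lost its call without any single array of the run except activated 2, and Uncx lost it without wildtype 2, wildtype 3 or activated 1.

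Capn6, a calpain-family gene whose protein lacks a working protease site, gave the smallest adjusted p of the members. Its brighter probe set read 322, 382 and 320 in activated kidneys, against 1709, 1359 and 1250 in wildtype kidneys. The 3 activated values lay close together and far below wildtype, and the difference was -1.98 (SE 0.15, adjusted p = 0.000354 by limma), 3.95-fold lower. Capn6 passed without any single array of the run. Its dimmer probe set read 24.8, 67.7 and 24.6 in activated kidneys, against 58.5, 140 and 87.3 in wildtype kidneys. That probe set overlapped between the groups and gave -1.11 (SE 0.36, adjusted p = 0.505 over all probe sets), the same sign without passing.

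Traf1, which encodes an adaptor of tumor necrosis factor receptors and is transcribed in cap mesenchyme, read 3.73, 1.46 and 13.9 in activated kidneys, against 52.0, 52.4 and 64.2 in wildtype kidneys. All 3 activated values were under the bacterial control level and all 3 wildtype values above it. The fitted difference was -1.71 (SE 0.30, adjusted p = 0.039 by limma). With the activated readings at background, the size of this difference is uncertain and no fold is given. Its call was lost with a pseudocount of 1, with every probe set tested alone, without the variance trend, and without any single array of the run except activated 3.

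Itga8, the integrin subunit through which cap cells bind nephronectin on the ureteric bud, read 39.9, 37.3 and 59.6 in activated kidneys, against 53.1, 79.8 and 83.5 in wildtype kidneys. The groups overlapped, and the difference was -0.53 (SE 0.30, adjusted p = 0.82 by limma).

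In the higher run none of the 10 members passed, where 0.00807% of all genes did, and 0 of the 10 had an unadjusted p under 0.05, against 6.36% of all genes. A negative difference was found for 9 of the 10, against 50.3% of all genes, with a median of -0.29 and a median of all genes of 0.00. The differences lay between -0.61 for Osr1 and 0.19 for Sall1. The 3 activated arrays lay wholly below wildtype in 1 of the 10, Cited1, against 5.73% of all genes, and wholly above in 0, against 5.6%.

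Six2 read 988, 1223 and 653 in activated kidneys of the higher run, against 1148, 986 and 1272 in wildtype kidneys. The groups overlapped, with activated 6 the low array, and the difference was -0.29 (SE 0.21, adjusted p = 0.881 by limma). The groups of Capn6 also overlapped, at 1346, 1373 and 989 in activated kidneys, against 1167, 1282 and 1575 in wildtype kidneys. The difference was -0.15 (SE 0.15, adjusted p = 0.921 by limma). Its dimmer probe set had the opposite sign, 0.18 (SE 0.26, adjusted p = 0.951 by limma over all probe sets).

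Cited1 read 223, 258 and 355 in activated kidneys, against 365, 357 and 356 in wildtype kidneys. The highest activated and the lowest wildtype array nearly touched, and the difference of -0.33 (SE 0.16, adjusted p = 0.801 by limma) did not pass. Uncx read 173, 244 and 268 in activated kidneys, against 441, 304 and 262 in wildtype kidneys, with a difference of -0.47 (SE 0.22, adjusted p = 0.784 by limma). Its groups overlapped through wildtype 6.

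Meox1 read 125, 101 and 58.1 in activated kidneys, against 135, 83.2 and 171 in wildtype kidneys, with overlap and a difference of -0.36 (SE 0.33, adjusted p = 0.902 by limma). Traf1 was above the bacterial control level on every array of this run, at 45, 54.7 and 46.9 in activated kidneys, against 53.8, 55.4 and 84.1 in wildtype kidneys. Its difference was -0.28 (SE 0.23, adjusted p = 0.894 by limma), again with overlap.

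Osr1 read 29.6, 19.8 and 95.6 in activated kidneys, against 72.6, 111 and 40.4 in wildtype kidneys. The difference was -0.61 (SE 0.41, adjusted p = 0.879 by limma). The high activated array was activated 6, which also had the highest 5' to 3' control ratio of the run, -1.14. Activated 6, wildtype 5 and, in the lower run, wildtype 2 were the arrays with low Y-linked signal (4.24 to 4.48). Each had the highest Osr1 reading and the highest control ratio of its genotype and run. Activated 2, also high in both, had Y-linked signal (7.38). The part of sex in these values was not tested. Eya1, Sall1 and Itga8 all overlapped as well, at 15.5 to 47.3, 44.3 to 66.6 and 49.5 to 53.8 in activated kidneys, against 23.2 to 40.2, 39.6 to 55.8 and 42.9 to 79.6 in wildtype kidneys.

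**Figure D3:**
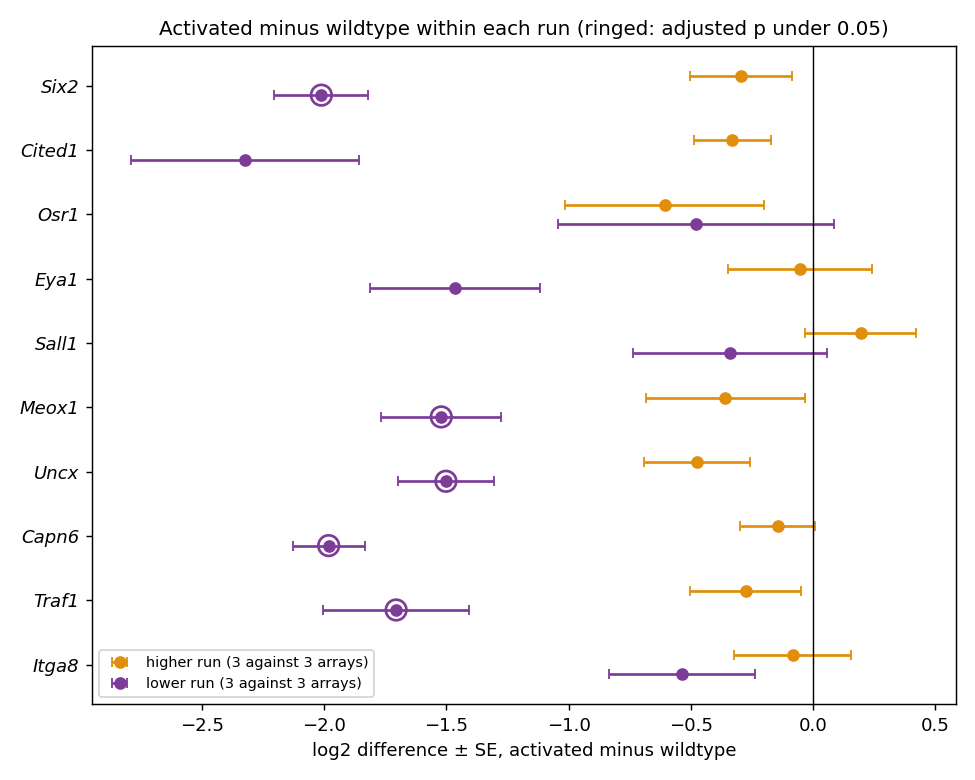
Log2 difference, activated minus wildtype, with its SE on the horizontal axis for each of the 10 genes, from separate fits of 3 against 3 arrays in the higher run (orange) and the lower run (purple); ringed points passed at an adjusted p under 0.05. The 5 ringed points, Six2, Meox1, Uncx, Capn6 and Traf1, are all of the lower run, and the higher-run points lie between -0.61 and 0.19.

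The difference of the activation effect between the runs was tested directly, as higher-run minus lower-run effect. Six2 and Capn6 passed, both with a positive difference, which 0.0968% of all genes did. The difference was 1.72 for Six2 (SE 0.30, adjusted p = 0.0253 by limma) and 1.84 for Capn6 (SE 0.21, adjusted p = 0.00194 by limma). Cited1 differed by 1.99 (SE 0.54, adjusted p = 0.198 by limma) and Traf1 by 1.43 (SE 0.37, adjusted p = 0.179 by limma), neither past the test. The median over the 10 members was 1.29, with a median of all genes of 0.02; 9 of the 10 were positive and 1 negative, against 52.6% and 47.4% of all genes, and 7 of the 10 had an unadjusted p under 0.05, against 6.11% of all genes.

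The brighter probe set of Capn6 passed this test without each of the 12 arrays in turn. Its dimmer probe set gave 1.30 (SE 0.46, adjusted p = 0.598 by limma over all probe sets), the same sign without passing. Six2 lost its call without wildtype 1, 3, 4 or 5 or activated 3, 4 or 5, with an adjusted p of 0.0621 to 0.085 there. Without wildtype 1, whose Cited1 reading was low, Cited1 passed in place of Six2.

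The same arrays can be read between the runs within a genotype. In activated kidneys Six2, Cited1, Capn6 and Traf1 were higher in the higher run than in the lower run, 4 of the 10 members, where 3.41% of all genes passed with that sign and 4.91% in either direction. A positive sign was found for 9 and a negative for 1, against 49.8% and 50.2% of all genes, and an unadjusted p under 0.05 for 7, against 16.7%. Higher minus lower run gave 1.84 for Six2 (SE 0.21, adjusted p = 0.000137 by limma), 2.47 for Cited1 (SE 0.38, adjusted p = 0.00134 by limma), 1.74 for Capn6 (SE 0.15, adjusted p = 1.13e-05 by limma) and 1.59 for Traf1 (SE 0.26, adjusted p = 0.00236 by limma), whose size is uncertain because its lower-run readings were at background. The activated arrays thus read 653 to 1223 for Six2 in the higher run, against 207 to 286 in the lower run. These 4 genes passed without each of the 12 arrays in turn. The dimmer probe set of Capn6 gave 0.78 (SE 0.32, adjusted p = 0.272 by limma over all probe sets) and did not pass.

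Within wildtype none of the 10 members passed between the runs, a count near the share of all genes, 5.16% (3.53% with a positive difference). An unadjusted p under 0.05 was found for 1 of the 10, Uncx, against 17.9% of all genes. Six2 read 986 to 1272 in wildtype kidneys of the higher run, against 805 to 1153 in those of the lower run, a difference of 0.12 (SE 0.21, adjusted p = 0.845 by limma). Capn6 differed by -0.10 (SE 0.15, adjusted p = 0.812 by limma) and Uncx by -0.52 (SE 0.21, adjusted p = 0.201 by limma). These run contrasts share their arrays with the activation contrasts above and are the same values seen along the other axis of the design.

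**Figure D4:**
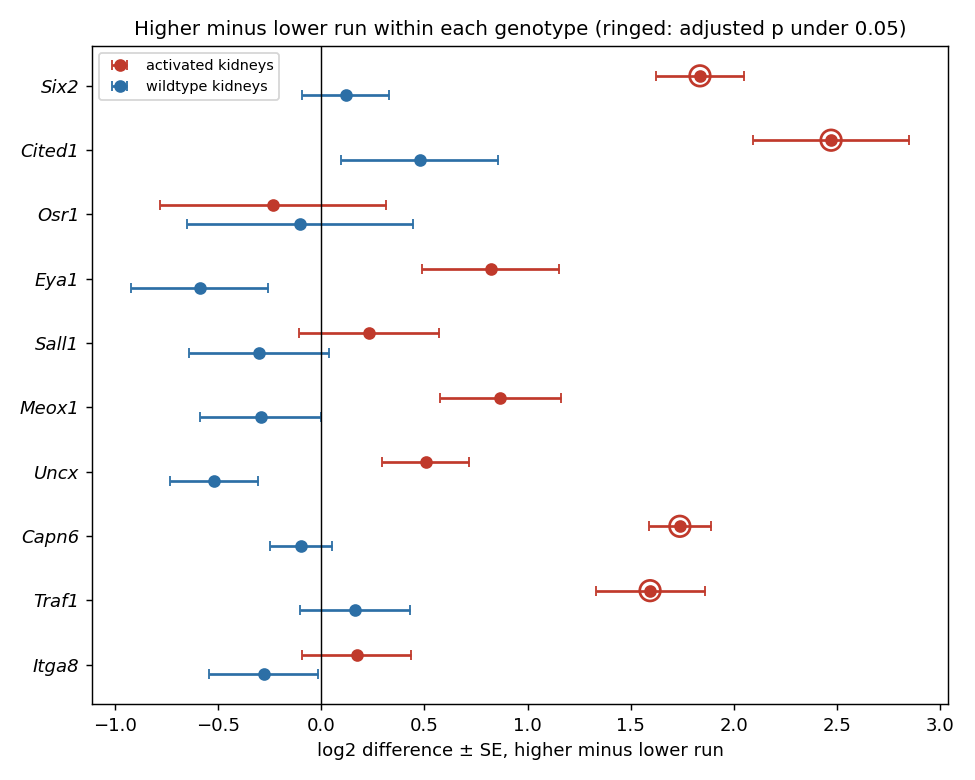
Log2 difference, higher minus lower run, with its SE on the horizontal axis for each of the 10 genes in activated (red) and wildtype (blue) kidneys, from the model of 4 group means; ringed points passed at an adjusted p under 0.05. Six2, Cited1, Capn6 and Traf1 are ringed in activated kidneys, at 1.59 to 2.47, and no wildtype point is ringed.

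The genes with the profile most like Six2 over the 12 arrays, by the smallest root mean square difference between profiles centred on their means, were Capn6 (0.24 log2 units), Traf1 (0.29), Cap1 (0.31), Elavl4 (0.35) and Dtna (0.36). The place of Traf1 is uncertain, because its activated readings of the lower run were at background. Meox1 was at place 9, Cited1 at 116, Uncx at 124 and Eya1 at 328 of the genes tested, while Itga8, Sall1 and Osr1 lay at 1345, 5802 and 11817. Cap1, which encodes a regulator of actin filaments, read 50.5 to 66.5 in activated kidneys of the lower run, against 165 to 279 in wildtype. Its log2 difference there was -1.61, and that of the higher run 0.04, a description only, since these genes were chosen for their likeness to Six2 on the same arrays. Elavl4, a gene of RNA-binding proteins of neurons, and Dtna, a dystrobrevin gene, had differences of -1.29 and -1.32 in the lower run.

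Other genes ascribed to the cap mesenchyme were described as a list. Of 18 listed genes 13 were measured, and 0 passed in either run in either direction, with a median difference of -0.13 in the higher run and -0.36 in the lower run, where all genes had medians of 0.00 and -0.03. Tmem100, a membrane protein gene in that list, differed by 1.25 in the lower run (adjusted p = 0.13 by limma), against the sign of the members, and was lower in activated kidneys of the higher run than of the lower run (-1.20, adjusted p = 0.0168 by limma). Gdnf, the ligand by which cap cells signal to the ureteric bud, was named after its values were seen; it read 127 to 192 in activated kidneys of the lower run, against 283 to 515 in wildtype, a difference of -1.28 (SE 0.29, adjusted p = 0.123 by limma).

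Genes of the induced nephron, the stage that follows the progenitor state, were described in the same way. In the lower run 11 of 15 measured genes had a positive difference, against 45.6% of all genes, and 1 of them, Bmp2, a growth factor gene, rose (1.87, adjusted p = 0.0327 by limma), where 0.331% of all genes did. Wnt4, the signal needed for the vesicle to form, differed by 1.08 (adjusted p = 0.133 by limma) and did not pass. The list's summed intensity was 4200 to 4425 in activated kidneys of the lower run, against 3056 to 3987 in wildtype. In the higher run 6 of the 15 were positive, against 49.7% of all genes, and 0 passed. Within activated kidneys 5 of the 15 were lower in the higher run than in the lower run, among them Bmp2 and Wnt4, where 1.51% of all genes passed with that sign. In wildtype 1 of the 15 was lower, Sfrp2, a secreted Wnt modulator gene (-1.15, adjusted p = 0.00211 by limma), against 1.64% of all genes.

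Among 14 measured niche signals and receptors, 0 passed between the genotypes in either run. Npnt, which encodes the nephronectin bound by the Itga8 integrin, differed by -0.68 in the higher run (adjusted p = 0.244 by limma) and by -0.02 in the lower run (adjusted p = 0.995 by limma). It was higher in the higher than in the lower run in wildtype (0.99, adjusted p = 0.00613 by limma).

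Markers of other cells of the kidney also moved in the lower run. Of 14 stromal markers 4 fell, where 0.266% of all genes did: Foxd1 and, named after their values were seen, Meis2, Aldh1a2 and Ntn1. Of the 14, 9 differences were negative and 5 positive, against 54.4% and 45.6% of all genes, with a median of -0.43. The highest, Snai2 (0.77) and Dcn (0.57), did not pass. The summed intensity of the 14 was 15876 to 17349 in activated kidneys, against 19237 to 20633 in wildtype. Of 10 measured ureteric bud markers 1 fell, Calb1, against the same 0.266% of all genes. Their differences were positive in 5 and negative in 5, with a median of -0.05, where all genes had -0.03. The sum was 3266 to 4878 in activated kidneys, against 5237 to 6171 in wildtype. Calb1 alone read 1513 to 1739, against 3040 to 3574, and so made up a large part of that sum. The 6 cap mesenchyme markers are Crym and the members Six2, Cited1, Meox1, Eya1 and Osr1, so their sum restates the members' values; it was 378 to 635 in activated kidneys, against 1742 to 1914 in wildtype. Neither the 9 endothelial, 7 macrophage and 3 podocyte markers nor the 6 proliferation genes gave a call in that run. Endothelial sums were 1142 to 1410 in activated kidneys, against 720 to 1314 in wildtype, and proliferation sums 5591 to 6572, against 5425 to 6718.

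In the higher run the stromal sum was 20247 to 21095 in activated kidneys, against 18844 to 19496 in wildtype, the ureteric bud sum 4890 to 6392, against 6186 to 7408, and the cap mesenchyme sum 1272 to 1790, against 1709 to 2056. The endothelial sum was 1052 to 1078 in activated kidneys, against 629 to 813 in wildtype, without overlap. All 9 endothelial differences were positive there, against 49.7% of all genes. No marker of any of these lists passed between the genotypes in the higher run. Between the runs within activated kidneys 2 stromal, 2 ureteric bud and 3 macrophage markers were higher in the higher run, where 3.41% of all genes were, among them Dcn, Krt8, Krt19, Csf1r, Fcer1g and Tyrobp. The macrophage sum was 1643 to 1995 in activated kidneys of the higher run, against 686 to 1015 in those of the lower run, and in wildtype kidneys it was 1313 to 1798 in the higher run, against 648 to 1238 in the lower run. Within wildtype kidneys 3.53% of all genes were higher and 1.64% lower in the higher run. Of the stromal markers 3 were higher (Dcn, Penk and Snai2) and 3 lower (Foxd1, Aldh1a2 and Ntn1), and Krt8, Krt19 and Wfdc2 of the ureteric bud, Tyrobp of macrophages and Podxl of podocytes were higher while Top2a of the proliferation list was lower. Penk and Wfdc2 were also named after their values were seen. Over 12 arrays Calb1 fell in activated kidneys, and with the run as a term Dcn also rose there. The part of these other cells, and of the 5' to 3' control ratio, in the values of the progenitor genes was not tested beyond the fits given above. The part of sex, as read from Y-linked genes and Xist, was not tested. In the lower run wildtype 2 had low Y-linked signal and no activated array did.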

How the data were processed

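Arrays were labelled with an Affymetrix 3' kit per the labels' protocols. The authors deposited 1 linear intensity per probe set for 12 arrays; the software behind these values is not given in those sources. The 2% trimmed mean of each array was 250.1, so the deposited values had been scaled per array. Intensities were taken as log2(intensity + 16), which understates changes of dim genes, and quantile-normalised, since array medians differed by 0.29. Probe sets with 1 gene symbol (20380) were kept, with the brightest for each gene; 691 had several symbols, 1555 none and 64 were controls. Of 12393 genes, 12369 were found in the RefSeq table of GRCm38.p6. No build is named for the array, so only promoter windows carry coordinates.

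limma 3.58.1 in R 4.3.3 (variance trend) gave 7 comparisons: over 12 arrays, with the run as a term, within each run, and, from 4 group means, the difference between runs and the runs within each genotype. A further 10 gene lists were described by counts and medians. All members were named; from a list at most 3 genes past the threshold in any comparison, with the smallest adjusted p, and the 5 genes nearest in profile to Six2. Gdnf, Meis2, Aldh1a2, Ntn1, Penk and Wfdc2 fall outside this rule and were named after their values were seen. Members and lists were chosen with earlier results of these data known. The fits were tested on simulated data. Alternatives were other scalings, a pseudocount of 1, removal of the dimmest 40% of genes, other uses of probe sets, no trend, a threshold of 0.01, a spread pooled over 4 groups, the control ratio as a term, and each array left out. Plots used matplotlib 3.10.9. The number of arrays limits the precision.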

Additional observations from a re-analysis of the deposited data

Results flagged for a closer look

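Of 20 sets of 6 arrays (10 genes in each genotype), 2 held an array far from the others, where chance gives about 1 in 20. Cited1 in wildtype 1 read 6.95 (normalised log2), where the other wildtype arrays lay between 8.34 and 8.80; the gap was 0.75 of the range. Meox1 in wildtype 5 read 6.57, where the others lay between 7.23 and 7.53; the gap was 0.686 of the range.

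The activation effect differed between the runs, higher minus lower, by 1.72 for Six2 and by 1.84 for Capn6, and limma's test of that difference passed for both. The value of Capn6 is that of its brighter probe set, and its dimmer probe set did not pass.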

How the results depend on the processing

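Six2 and Capn6 passed in the lower run under every alternative run there. With every probe set tested alone, Capn6 passed by its brighter probe set, and its dimmer one did not pass (adjusted p = 0.505 by limma). The lower-run count of 5 members, with 74 of all 12393 genes, became 3 at a threshold of 0.01 (Six2, Uncx and Capn6), with 34 of all genes. It was 2 to 5 without single arrays. It was 2, Six2 and Capn6, without wildtype 2, wildtype 3 or activated 1, with 32, 36 and 30 of all genes. With arrays centred on their medians it was 6, with Cited1 added, and 73 of all genes passed. Under the pooled spread, and with the control ratio as a term, it was 7, with Cited1 and Eya1 added. Calls over all genes there rose to 188 and 304. Where genes were removed as dim, Eya1 and Traf1 left the table and the count was 5 of 8, with Cited1 in it, where 87 of 7436 genes passed. The count for the difference between the runs, 2, became 1, Capn6, with arrays centred on their medians, without the variance trend and at a threshold of 0.01. Calls over all genes fell there from 41 to 18, 24 and 13. The member count was 1 to 2 without single arrays. With the run as a term the count of 0 became 1, Uncx, with the control ratio as a further term, and was 0 to 1 without single arrays. Adding that ratio raised the calls over all genes from 13 to 78. The counts over 12 arrays, in the higher run and between runs in wildtype stayed at 0 under every alternative, and that in activated kidneys was 3 to 5. The cause of these changes was not tested.

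Signs turned for differences that did not pass. Capn6 in the higher run was 0.0197 as the mean of its probe sets. With the control ratio as a term, the difference between runs was -0.0238 for Six2 and 0.32 for Osr1 in wildtype and 0.31 for Osr1 in activated kidneys. Without single arrays, Sall1 ran from -0.24 to 0.0585 over 12 arrays and from -0.25 to 0.077 with the run as a term, Osr1 from -0.89 to 0.20 in the lower run, and Eya1 from -0.27 to 0.23 and Itga8 from -0.25 to 0.13 in the higher run. The difference of effects of Osr1 ran from -0.81 to 0.29. Between runs in wildtype the ranges were -0.0339 to 0.22 for Six2, -0.0634 to 0.86 for Cited1, -0.51 to 0.58 for Osr1, -0.22 to 0.0128 for Capn6 and -0.0094 to 0.26 for Traf1; in activated kidneys they were -0.0351 to 0.71 for Sall1 and -0.66 to 0.18 for Osr1.

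No paired analysis was possible because the sample titles carry no number shared between the genotypes. Readings near the bacterial controls, as for Eya1 and Traf1, limit what can be said of the size of a change.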
